A study of Mus musculus with 8 samples.

Results

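The 10 genes described here encode the molecular circadian clock or are driven directly by it: Arntl, Clock, Npas2, Per1, Per2, Per3, Cry1, Nr1d1, Dbp and Bhlhe41. They were taken by gene symbol from a table of 34745 Ensembl genes, and each symbol matched a single row. All 10 were among the 15684 genes with enough counts to be tested. The samples were skin from mice aged 16 weeks and labelled male, in 2 groups of 4 RNA-seq libraries. Mice of the group labelled NcstnΔKC carried floxed Ncstn alleles and the tamoxifen-activated recombinase Krt14-CreER. They were dosed by mouth from 8 weeks of age with tamoxifen, 20 mg/kg daily over 5 days and later once in 10 days. The deleted gene encodes nicastrin, part of the membrane protease complex γ-secretase. Krt14-driven recombination acts in basal keratinocytes and follicle epithelium, so dermal cells keep the gene. The protocol text gives the normal group the same genotype with corn oil in place of tamoxifen, whereas its genotype label reads wildtype. The labels do not give the hour at which the tissue was taken, the lighting schedule, or whether a library held 1 animal. P-values therefore measure the spread between these samples, which may be technical.

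The clock is a feedback loop of transcription factors. ARNTL, also called BMAL1, pairs with CLOCK or its relative NPAS2 and activates genes that carry E-box elements, among them the Per, Cry, Nr1d1, Dbp and Bhlhe41 genes. PER and CRY proteins then repress that activation, the nuclear receptor encoded by Nr1d1 (REV-ERBα) represses Arntl, BHLHE41 (DEC2) competes at E-boxes, and DBP activates genes through D-box elements. Transcripts of Arntl and Npas2 peak at another time of day than those of Dbp and Per3 in most tissues, skin included.

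Ncstn itself did not mark the groups at the level of whole-gene counts (log2 fold change -0.07 ± 0.12, SE, adjusted p = 0.663, edgeR's quasi-likelihood test), and such counts do not separate floxed exons from the rest. The groups are therefore named by their labels. The keratinocyte genes Krt5, Krt14 and Krt10 and the collagen gene Col1a1 were detected in every library. By edgeR, Krt5 and Krt14 were 1.86-fold and 4.03-fold higher in NcstnΔKC (adjusted p = 0.00686 and 4.49e-04). Krt10 was 4.93-fold lower (edgeR adjusted p = 0.00337). Col1a1 differed 20.5-fold among the normal libraries. Total counts were 5835422 to 8663753 in normal libraries and 11881506 to 12893174 in NcstnΔKC libraries (exact two-sided permutation test, p = 0.0286, adjusted p = 0.0629 over 11 library measures). Skeletal muscle markers (13 genes, summed) took 0.798%, 4.14%, 6.24% and 5.56% of the counts of normal replicates 1 to 4. The corresponding NcstnΔKC shares were 0.846%, 0.118%, 0.334% and 0.415%. Hair follicle markers took 3.23% in normal replicate 2 and 0.0337% to 0.078% in the other normal libraries, against 0.0136% to 0.0181% in NcstnΔKC, where 2 of the 11 genes were at 0. Fibroblast markers took 3.26% and 2.92% in normal replicates 1 and 2 but 0.363% and 0.464% in normal replicates 3 and 4, and 0.429% to 1.42% in NcstnΔKC. Basal keratinocyte markers took 0.692% to 1.12% in normal and 1.33% to 2.0% in NcstnΔKC. Suprabasal keratinocyte markers took 0.508% to 0.959% in normal and 0.584% to 1.18% in NcstnΔKC. Of their 12 tested rows 6 were higher and 3 lower, so the fall of Krt10 does not stand for that list. Flg alone fills 7 of the 13 rows of the list. Neutrophil markers took 0.000311% to 0.00124% in normal and 0.00926% to 0.042% in NcstnΔKC, with 6 of 6 tested genes higher. Macrophage markers took 0.0322% to 0.0598% in normal, 0.0391% in NcstnΔKC replicate 1 and 0.211% to 0.285% in NcstnΔKC replicates 2 to 4. Adipocyte markers took 0.0516% to 0.117% in normal and 0.00855% to 0.0482% in NcstnΔKC, with 6 of 8 genes lower. The part of these cell types in the values below was not tested. Replicates 3 and 4 of both groups had more than 100 counts of Xist although all mice are labelled male, and replicates 1 and 2 did not. Libraries are called with or without Xist below by that threshold. In such whole tissue, fewer cells of a type and less RNA per cell cannot be told apart.

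The promoter windows of 4 genes are shown because they hold an E-box or a D-box form, the elements through which the loop's proteins act, and belong to genes of the repressing arm and the second loop. RefSeq windows of 300 bases, from 250 before to 50 after an annotated start (GRCm38.p6), were found for 9 of the 10 genes, 13 windows in all; Per2 was the gene without one. Exact matches were searched on both strands for the E-box CACGTG, the D-box form TTATGNAA and AGGTCA, the core of the element bound by REV-ERB and ROR receptors (RORE). The E-box occurred in 7.15% of all 32851 RefSeq windows and 8.09% of 27025 genes, the D-box form in 3.38% and 3.99%, and the RORE core in 16.3% and 18.1%. Among the 9 genes, 3 had an E-box (Per1, Cry1 and Bhlhe41), 2 had the D-box form (Per1 and Per3), and 3 had the RORE core (Per1, Arntl and Clock). Matches are in capitals, each sequence is on the strand of its gene, and no match overlapped another. The RORE core in Per1 lies on the opposite strand and so reads TGACCT.
Bhlhe41 (chr6:145865371-145865670, minus strand): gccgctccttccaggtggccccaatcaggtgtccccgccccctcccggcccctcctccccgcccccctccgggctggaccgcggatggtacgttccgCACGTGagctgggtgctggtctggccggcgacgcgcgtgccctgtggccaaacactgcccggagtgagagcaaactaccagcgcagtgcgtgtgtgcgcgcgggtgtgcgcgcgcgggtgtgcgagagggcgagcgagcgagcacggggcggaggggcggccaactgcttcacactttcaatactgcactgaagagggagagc
Per3 (chr4:151044616-151044915, minus strand): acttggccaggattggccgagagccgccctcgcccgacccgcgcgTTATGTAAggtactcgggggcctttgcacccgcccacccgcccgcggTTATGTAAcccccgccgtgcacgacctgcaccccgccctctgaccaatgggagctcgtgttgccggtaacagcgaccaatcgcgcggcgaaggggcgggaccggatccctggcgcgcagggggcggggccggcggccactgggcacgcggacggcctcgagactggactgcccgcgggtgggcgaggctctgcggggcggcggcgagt
Per1 (chr11:69098699-69098998, plus strand): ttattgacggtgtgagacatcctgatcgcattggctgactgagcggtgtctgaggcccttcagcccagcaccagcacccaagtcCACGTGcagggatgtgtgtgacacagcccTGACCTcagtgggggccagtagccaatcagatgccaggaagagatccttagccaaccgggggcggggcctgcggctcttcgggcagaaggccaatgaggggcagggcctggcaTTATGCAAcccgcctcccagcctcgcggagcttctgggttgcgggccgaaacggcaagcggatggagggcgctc
Cry1 (chr10:85185005-85185304, minus strand): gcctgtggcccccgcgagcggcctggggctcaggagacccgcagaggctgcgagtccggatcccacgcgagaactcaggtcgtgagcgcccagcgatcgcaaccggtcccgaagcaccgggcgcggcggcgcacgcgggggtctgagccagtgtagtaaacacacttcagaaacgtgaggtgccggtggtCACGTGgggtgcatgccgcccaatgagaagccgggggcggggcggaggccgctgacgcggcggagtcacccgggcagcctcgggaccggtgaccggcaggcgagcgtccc
Counted in bases from the annotated start, the Per3 window holds the D-box form at -205 and -158. The E-box lies at -153 in Bhlhe41 and at -60 in Cry1. In Per1 the E-box lies at -166, the RORE core at -137 and the D-box form at -24. A match describes letters only, and the windows do not cover distal elements.

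Of the 10 clock genes, 4 were lower and 1 was higher in NcstnΔKC skin (edgeR, Benjamini-Hochberg adjusted p below 0.05 over all tested genes). Bhlhe41 fell 12.9-fold, Dbp 5.89-fold, Per3 3.38-fold and Nr1d1 2.11-fold. Clock rose 1.36-fold, except that with libraries scaled by basal keratinocyte genes it was lower (-0.22 on the log2 scale). Of the 12 genes behind that scaling, 10 were themselves called higher in NcstnΔKC and 1 lower. That scaling therefore takes as its reference genes that differed between the groups in the main fit. Arntl, Npas2, Per1, Per2 and Cry1 did not pass. The split turned with the scaling, to 2 higher and 2 lower with total counts, 2 higher and 1 lower with FPKM, and 0 higher and 6 lower with scaling by basal keratinocyte genes. Across all tested genes 22.7% were called lower and 21.4% higher, together 44.1%, so 5 of 10 lies near the background share. Groups did not overlap for 4 of the 10 genes (Clock higher, and Per3, Dbp and Bhlhe41 lower), against 41.6% of all tested genes, 20.9% higher and 20.7% lower. On the FPKM scale the groups of Per3 and Dbp did overlap, while those of Clock, Bhlhe41 and also Cry1 did not. The median log2 fold change over the 10 was -1.06, beside -0.02 over all tested genes. That background median was 0.30 with scaling by total counts, 0.20 with the authors' FPKM values and -0.70 with scaling by basal keratinocyte genes.

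**Figure D1:**
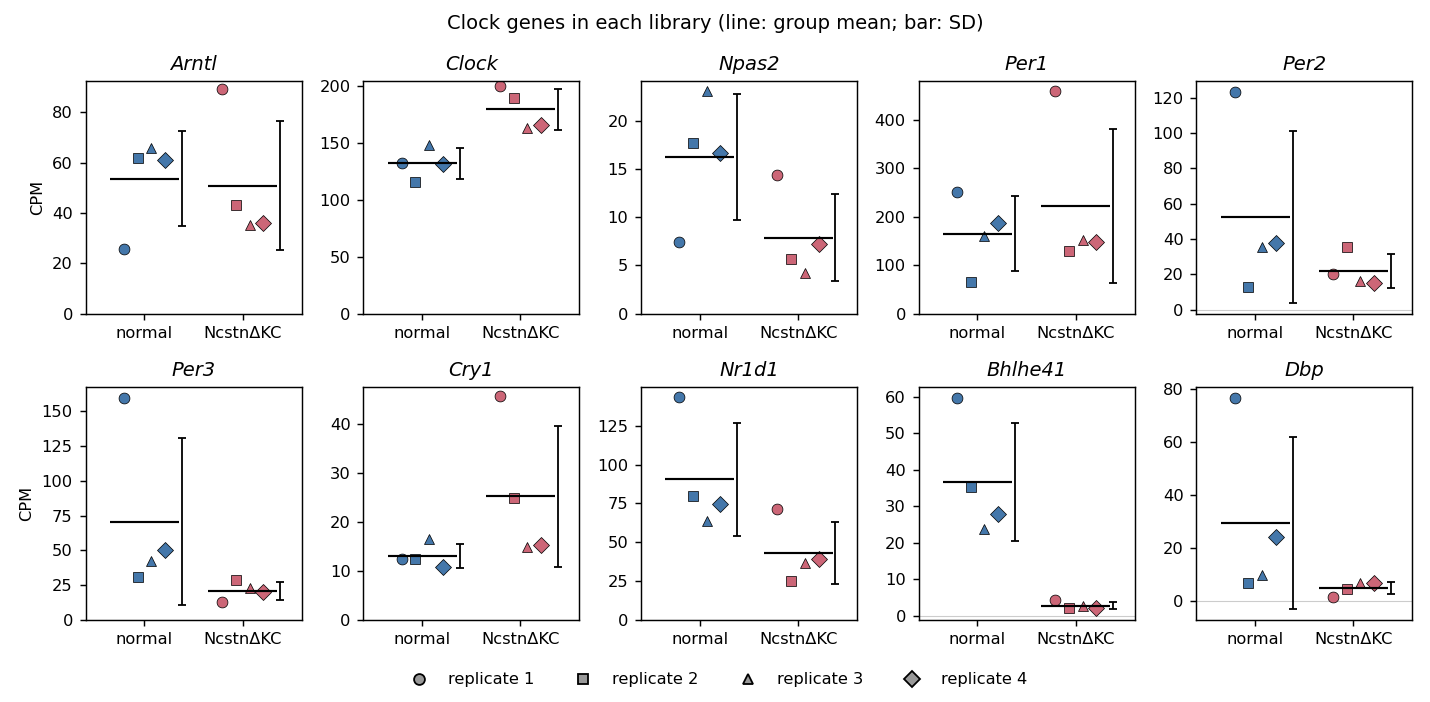
CPM (counts relative to the scaled library size) of the 10 clock genes in each library, with normal libraries in blue and NcstnΔKC libraries in red. Horizontal lines are group means, vertical bars are ± 1 SD (n = 4), and marker shapes give the replicate. Bhlhe41 lies between 23.7 and 59.7 CPM in normal skin and between 2.15 and 4.28 CPM in NcstnΔKC skin, while the Arntl points of the groups overlap.

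In the activating arm, Arntl (ENSMUSG00000055116, mm10 chromosome 7, 113207465 to 113314122, plus strand) had 25.5, 61.9, 65.8 and 61.2 CPM in normal replicates 1 to 4, where CPM are counts per 1000000 of the scaled library size. In NcstnΔKC replicates 1 to 4 it had 89.3, 43.2, 35.3 and 35.9 CPM. Replicate 1 stood apart in both groups, as the lowest normal library and the highest NcstnΔKC library, and the groups overlapped. Mean levels of 53.6 ± 18.8 and 50.9 ± 25.8 CPM (SD, n = 4 each) gave a log2 difference of -0.07 ± 0.38 (SE, 95% interval -0.93 to 0.78, edgeR adjusted p = 0.886). The value was 0.24 with scaling by total counts and 0.22 with FPKM. Without replicate 1 of either group, a choice made after seeing the data, it was -0.70 and passed (adjusted p = 0.00325, and 0.00305 to 0.995 among 26 alternatives). In the libraries with Xist alone, which also leave replicate 1 out, it was -0.80 and passed (adjusted p = 0.00305).

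Clock (ENSMUSG00000029238, chromosome 5, 76209868 to 76304792, minus strand), the partner of ARNTL, had the most even values of the 10 genes. It had 132.7, 115, 148 and 131 CPM in normal replicates 1 to 4 and 200.05, 189, 163 and 166 CPM in NcstnΔKC replicates 1 to 4. All NcstnΔKC libraries lay above all normal ones. Clock rose by 0.44 ± 0.12 on the log2 scale (SE, 95% interval 0.16 to 0.72, edgeR adjusted p = 0.018), and it stayed past the threshold without any single library. Its call ended under the basal keratinocyte scaling, where its sign turned (-0.22, adjusted p = 0.355), with the replicate block (0.44, adjusted p = 0.0537), in the libraries with Xist alone (0.27), in those without Xist alone (0.65), with the skeletal muscle share in the fit (0.49, adjusted p = 0.18), and where a log2 change of at least 1 was also required.

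Npas2 (ENSMUSG00000026077, chromosome 1, 39193731 to 39363236, plus strand), which can stand in for CLOCK, was like Arntl in which library stood lowest or highest in each group. It had 7.44, 17.7, 23.2 and 16.7 CPM in normal replicates 1 to 4 and 14.4, 5.67, 4.22 and 7.25 CPM in NcstnΔKC replicates 1 to 4. Again replicate 1 was the lowest normal library and the highest NcstnΔKC one. Its log2 fold change was -1.05 ± 0.44 (SE, 95% interval -2.04 to -0.05) and did not pass (edgeR adjusted p = 0.0811). It passed without NcstnΔKC replicate 1 (-1.501, adjusted p = 0.0117) and without normal replicate 1 (-1.22, adjusted p = 0.0389), and its adjusted p went from 0.00128 to 0.781 among the alternatives. With the skeletal muscle share in the fit the value was 0.54 and did not pass.

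In the repressing arm, Per3 (ENSMUSG00000028957, chromosome 4, 151003652 to 151044665, minus strand), the period gene whose window above holds the D-box form at 2 places, had 159.9, 30.4, 42.1 and 50.4 CPM in normal replicates 1 to 4. It had 12.8, 28.3, 22.7 and 19.8 CPM in NcstnΔKC replicates 1 to 4. Every NcstnΔKC library lay below every normal one, although the highest NcstnΔKC value and the lowest normal value were close, and on the FPKM scale the groups overlapped (1.01 to 2.59 FPKM against 2.04 to 12.3 FPKM). Per3 had a log2 fold change of -1.76 ± 0.51 (SE, 95% interval -2.92 to -0.60, edgeR adjusted p = 0.0219). Without normal replicate 1 it was -0.90 and still passed (adjusted p = 0.0393). The call ended without NcstnΔKC replicate 3 (-1.79, adjusted p = 0.0501) or replicate 4 (-1.72, adjusted p = 0.052), with the replicate block (-1.44, adjusted p = 0.0986), with scaling by total counts (-1.47), with FPKM (-0.87), without a filter on low counts (-1.63) and in the libraries without Xist (-2.21).

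Per2 (ENSMUSG00000055866, chromosome 1, 91415982 to 91459324, minus strand), a core repressor of ARNTL and CLOCK, had 123, 12.9, 35.4 and 37.7 CPM in normal replicates 1 to 4. The NcstnΔKC replicates had 20.3, 35.5, 16.2 and 15.3 CPM, inside the normal range. Normal libraries alone differed 9.57-fold between replicates 1 and 2. The log2 fold change of -1.26 ± 0.60 (SE, 95% interval -2.62 to 0.10) did not pass (edgeR adjusted p = 0.117). It was -0.33 without normal replicate 1, and without normal replicate 2 it was -1.54 and passed (adjusted p = 0.0413, and 0.00125 to 0.57 among the alternatives).

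Per1 (ENSMUSG00000020893, chromosome 11, 69095217 to 69109960, plus strand), a period gene that also answers to glucocorticoids, had 250.1, 65.1, 159.5 and 186 CPM in normal replicates 1 to 4. It had 460.0, 130.04, 152 and 148 CPM in NcstnΔKC replicates 1 to 4. NcstnΔKC replicate 1 was the highest of all 8 libraries and the other 3 lay within the normal range. Per1 had a log2 fold change of 0.43 ± 0.50 (SE, 95% interval -0.69 to 1.55, edgeR adjusted p = 0.51), it was -0.20 without NcstnΔKC replicate 1, -0.09 with scaling by basal keratinocyte genes, and it passed under no alternative.

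Cry1 (ENSMUSG00000020038, chromosome 10, 85131702 to 85185054, minus strand), a cryptochrome that acts with the PER proteins, had 12.5, 12.3, 16.5 and 10.7 CPM in normal replicates 1 to 4. The NcstnΔKC replicates had 45.6, 24.9, 14.9 and 15.2 CPM, so replicates 1 and 2 lay above all normal libraries and replicates 3 and 4 within their range. FPKM values follow a gene's share of the total counts of its library. On that scale all NcstnΔKC libraries (5.63 to 15.2 FPKM) lay above all normal ones (3.23 to 4.48 FPKM) for Cry1. Its log2 fold change was 0.95 ± 0.37 (SE, 95% interval 0.12 to 1.78) and did not pass (edgeR adjusted p = 0.0613). It was 0.50 without NcstnΔKC replicate 1. It passed with scaling by total counts (1.25), with FPKM (0.97), without a filter (1.07), with muscle, adipocyte and hair follicle genes removed from library sizes (0.998), with the DESeq2 Wald test (0.97), and without NcstnΔKC replicate 3 (1.14) or 4 (1.14), and its adjusted p went from 0.0115 to 0.525 among the alternatives.

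In the second loop, Bhlhe41 (ENSMUSG00000030256, chromosome 6, 145858243 to 145865558, minus strand) showed the largest difference of the 10 genes. It had 59.7, 35.3, 23.7 and 28.0 CPM in normal replicates 1 to 4 and 4.28, 2.19, 2.77 and 2.15 CPM in NcstnΔKC replicates 1 to 4. The lowest normal library lay far above the highest NcstnΔKC library. The log2 fold change was -3.69 ± 0.37 (SE, 95% interval -4.52 to -2.86, edgeR adjusted p = 1.89e-04). Among the 26 alternatives the fall ranged from -4.30 to -1.88, the latter on the log2(FPKM + 1) scale, and its call ended in the libraries without Xist alone (-3.88, adjusted p = 0.0711), a fit with 2 libraries per group. An antisense transcript of a gene that the table names RP24-238C11.4 shares 1280 of the 6720 exon bases, and it had 0 to 16 counts per library. Whether counting used strand was not stated.

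Nr1d1 (ENSMUSG00000020889, chromosome 11, 98767932 to 98775333, minus strand), which encodes REV-ERBα, had 143.9, 79.6, 64.0 and 74.4 CPM in normal replicates 1 to 4. It had 71.5, 24.8, 36.6 and 38.9 CPM in NcstnΔKC replicates 1 to 4. Only NcstnΔKC replicate 1 reached into the normal range. The log2 fold change was -1.08 ± 0.36 (SE, 95% interval -1.88 to -0.27, edgeR adjusted p = 0.0364). This call ended without normal replicate 1 (-0.69, adjusted p = 0.113), normal replicate 2 (-1.09) or normal replicate 4 (-1.11). It also ended without NcstnΔKC replicate 2 (-0.88), 3 (-0.9995) or 4 (-1.02), with total counts (-0.81), with FPKM (-0.73), without a filter (-0.95), with the muscle share in the fit (-1.13) and in the libraries without Xist (-1.22). Thra, a thyroid hormone receptor gene on the opposite strand that shares 263 of the 3077 exon bases of Nr1d1, also fell (-0.86 ± 0.14, edgeR adjusted p = 0.00147), so reads in the shared end cannot be assigned without strand.

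On the output side, Dbp (ENSMUSG00000059824, chromosome 7, 45705088 to 45710155, plus strand) varied most between libraries of the normal group. It had 76.5, 6.85, 9.88 and 24.1 CPM in normal replicates 1 to 4, an 11.2-fold range. In NcstnΔKC replicates 1 to 4 it had 1.76, 4.65, 6.71 and 6.72 CPM. The groups did not overlap, with 6.72 against 6.85 CPM as the nearest values, but they overlapped on the FPKM scale (0.351 to 1.54 FPKM against 1.16 to 14.8 FPKM). The log2 fold change was -2.56 ± 0.76 (SE, 95% interval -4.29 to -0.83, edgeR adjusted p = 0.024), and it was -1.38 without normal replicate 1, where the call ended (adjusted p = 0.0745). The call also ended without NcstnΔKC replicate 2 (-2.52, adjusted p = 0.0584), with limma-voom (-2.10), with FPKM (-1.18), without a filter (-2.43), with the replicate block (-1.91, adjusted p = 0.13), in the libraries without Xist (-3.69), and without replicate 1 of both groups (-1.17). Sphk2, on the opposite strand, shares 539 of the 2993 exon bases of Dbp and fell by less (-0.35 ± 0.12, edgeR adjusted p = 0.0394).

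**Figure D2:**
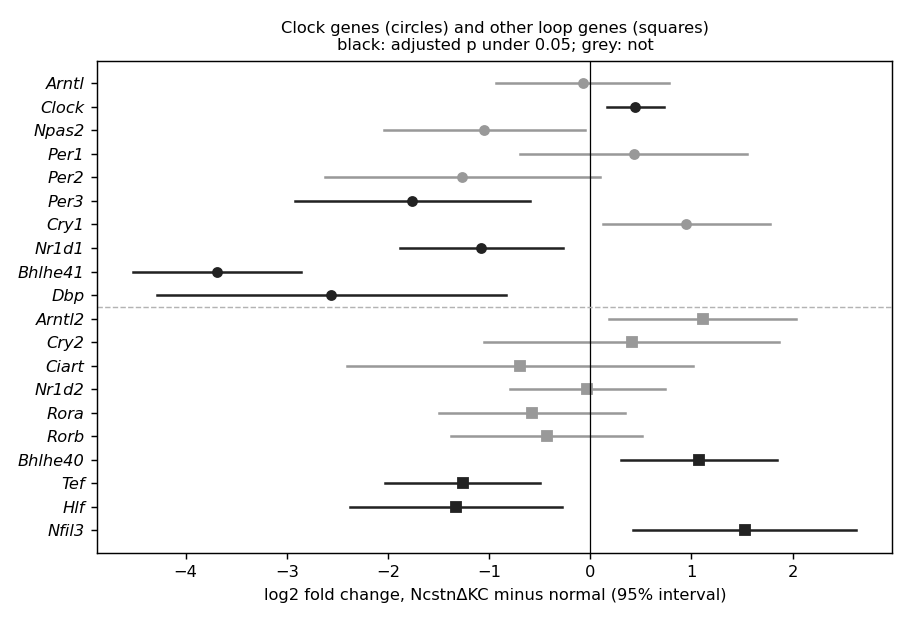
Log2 fold change (NcstnΔKC minus normal) of the 10 clock genes (circles) and 10 of the 11 other genes of the loop (squares), with 95% intervals from edgeR; black symbols have an adjusted p under 0.05. Bhlhe41 lies at -3.69, and of the circles to the right of 0 Clock alone is black, at 0.44, which becomes -0.22 with scaling by basal keratinocyte genes. Of those 12 reference genes, 10 were themselves called higher in NcstnΔKC.

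Skeletal muscle markers moved with part of these values, since normal replicate 1, with 0.798% of counts in them, was also the normal library with the least Arntl and Npas2 and the most Dbp, Per2 and Per3. In NcstnΔKC the library with the most muscle counts, replicate 1, had the most Arntl and Npas2. All 13 muscle genes were detected in both groups, and all 13 fell in NcstnΔKC. With the log2 muscle share as a covariate, Dbp was at -4.43 (adjusted p = 0.0154), Per3 at -3.38 (adjusted p = 0.00468), Per2 at -2.74 (adjusted p = 0.0292) and Bhlhe41 at -4.10 (adjusted p = 0.00539), all past the threshold, and Arntl at 1.26 (adjusted p = 0.0992). The muscle shares of the groups met only through the replicate 1 libraries (0.798% in normal, 0.846% in NcstnΔKC). In replicates 2 to 4 they were 4.14% to 6.24% in normal and 0.118% to 0.415% in NcstnΔKC. Muscle share and group are therefore hard to tell apart in that fit. The part of dermal fibroblasts, hair follicles and collection time in the spread between libraries was not tested.

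The spread of the clock genes within a group was wide. The SD of log2 CPM over the 4 normal libraries had a median of 0.68 over the 10 genes, from 0.15 for Clock to 1.54 for Dbp, beside a median of 0.29 over all tested genes. In NcstnΔKC the median was 0.63, from 0.14 for Clock to 0.88 for Dbp, beside 0.32. The normal SD of Dbp exceeded that of 98.0% of tested genes and that of Per2 exceeded 96.9%, whereas that of Clock exceeded 17.8%. Normal replicate 1 was the highest normal library in 6 of the 10 genes and NcstnΔKC replicate 1 the highest of its group in 7. The like share over all tested genes was not computed. These libraries also stood apart over genes at large. In pairwise comparisons of counts, NcstnΔKC replicate 1 had a chi-square per gene of 92.2 to 109.3, against 9.8 to 35.3 among replicates 2 to 4. Normal replicate 1 had 81.4 to 105.7, against 20.9 to 75.1 among normal replicates 2 to 4. In that group only replicates 3 and 4 were close (20.9). Normal replicate 2 had 75.1 and 63.4 against them, so normal replicate 1 was not alone in standing apart.

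**Figure D3:**
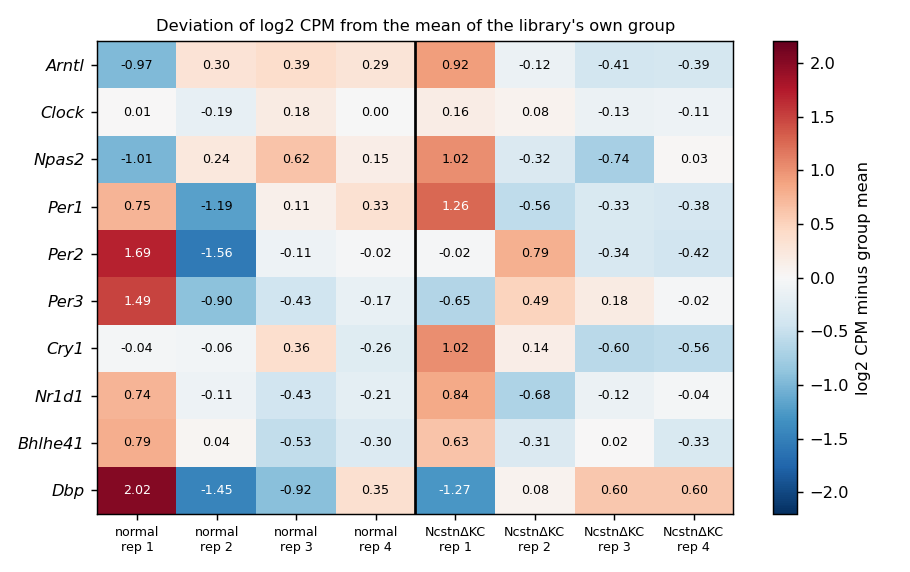
Deviation of log2 CPM from the mean of the library's own group, for 10 clock genes (rows) and 8 libraries (columns); red is above and blue below the group mean. In normal replicate 1 Arntl lies at -0.97 and Dbp at 2.02, and in NcstnΔKC replicate 1 Arntl lies at 0.92 and Dbp at -1.27.

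Arntl and Npas2 deviated opposite to Dbp and Per3 in most libraries but not in all. The other 6 genes followed neither pair throughout. In normal replicate 4 Arntl (0.29), Npas2 (0.15) and Dbp (0.35) all lay above their group means on the log2 scale. In NcstnΔKC replicate 4 so did Npas2 (0.03) and Dbp (0.60), while Arntl (-0.39) and Per3 (-0.02) both lay below. Normal replicate 1 had Arntl at -0.97 and Npas2 at -1.01 on the log2 scale relative to its group mean, with Dbp at 2.02, Per2 at 1.69 and Per3 at 1.49. Normal replicate 2 was the reverse, with Dbp at -1.45, Per2 at -1.56 and Arntl at 0.30. NcstnΔKC replicate 1 had Arntl at 0.92 and Npas2 at 1.02 with Dbp at -1.27 and Per3 at -0.65, but also Per1 at 1.26, Cry1 at 1.02 and Nr1d1 at 0.84, and Per2 at -0.02. NcstnΔKC replicates 2 to 4 deviated by at most 0.79 in any of the 10 genes. As a description over the 8 libraries, which differ in tissue makeup and depth also within a group, the deviations of Arntl and Npas2 had a Pearson correlation of 0.94, those of Per3 and Dbp 0.92, those of Nr1d1 and Bhlhe41 0.91, those of Arntl and Dbp -0.90 and those of Arntl and Per3 -0.86. Those of Per2 and Per3 had 0.87. Arntl had lesser correlations with Cry1 (0.68), Per2 (-0.50), Clock (0.41), Per1 (0.17), Bhlhe41 (-0.16) and Nr1d1 (-0.03).

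**Figure D4:**
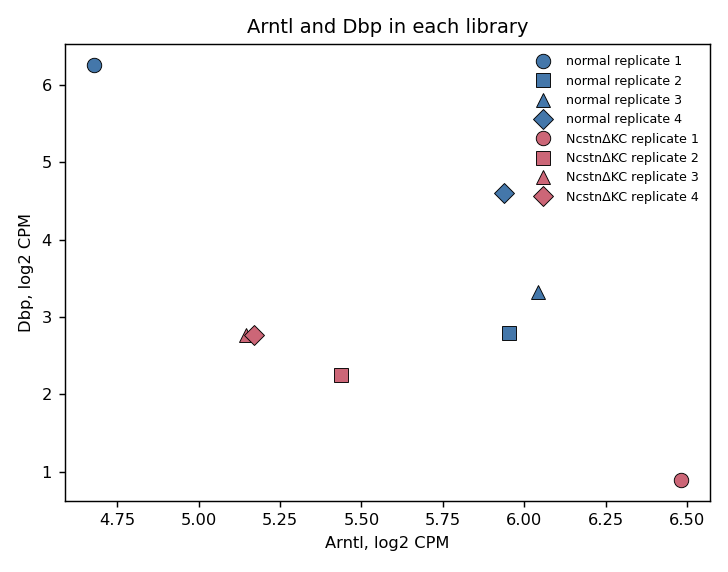
Arntl (horizontal axis) and Dbp (vertical axis) in log2 CPM, 1 point per library, normal in blue and NcstnΔKC in red. Normal replicate 1 lies at the upper left, NcstnΔKC replicate 1 at the lower right, and the other 6 libraries lie between.

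The log2 ratio of Arntl to Dbp, in which library scaling cancels, was -1.58, 3.16, 2.72 and 1.34 in normal replicates 1 to 4. It was 5.59, 3.19, 2.38 and 2.40 in NcstnΔKC replicates 1 to 4. The means were 1.41 ± 2.14 and 3.39 ± 1.51 (SD, n = 4 each) and the groups overlapped. The log2 ratio of Arntl to Nr1d1 was -2.49, -0.36, 0.04 and -0.28 in the normal libraries and 0.32, 0.80, -0.05 and -0.11 in the NcstnΔKC libraries. Normal replicate 1 was the lowest library in both ratios. NcstnΔKC replicate 1 was the highest in the ratio to Dbp, and NcstnΔKC replicate 2 in the ratio to Nr1d1.

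Levels between genes were compared on the FPKM scale, per kilobase of the authors' gene model. In normal skin Nr1d1 had the highest mean, 23.4 ± 11.3 FPKM (SD, n = 4), followed by Per1 at 18.1 ± 9.51 and Arntl at 16.1 ± 5.05 FPKM. Then came Per2 (8.24 ± 8.27 FPKM), Dbp (5.49 ± 6.38 FPKM), Clock (5.26 ± 0.603 FPKM), Per3 (5.16 ± 4.78 FPKM), Bhlhe41 (4.57 ± 2.36 FPKM), Cry1 (3.80 ± 0.561 FPKM) and Npas2 (2.86 ± 0.995 FPKM). All 9 neighbouring pairs in that order had overlapping ranges. In NcstnΔKC skin Per1 led at 28.9 ± 18.0 FPKM, then Arntl at 19.1 ± 7.99 and Nr1d1 at 13.4 ± 5.14 FPKM. Cry1 (9.06 ± 4.47 FPKM) and Clock (8.97 ± 0.661 FPKM) followed, then Per2 (4.14 ± 1.91 FPKM), Per3 (1.86 ± 0.656 FPKM), Npas2 (1.73 ± 0.851 FPKM), Dbp (1.12 ± 0.557 FPKM) and Bhlhe41 (0.428 ± 0.115 FPKM). There 7 of 9 neighbouring pairs overlapped, and Clock against Per2 and Per2 against Per3 did not. The order rests on the length behind the FPKM, which came to 2904 bases for Arntl and 22241 for Clock, against 7523 and 13727 exon bases in GENCODE M21. Per exon base of M21, Arntl was the seventh and not the third in normal skin, and Nr1d1 stayed the first.

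A further 11 genes of the loop were described from a list chosen by role, and 2 rose and 2 fell among them, with a median log2 fold change of -0.43, beside 21.4% higher and 22.7% lower over all tested genes. The split was 3 higher and 0 lower with total counts and with FPKM, and 0 higher and 4 lower with scaling by basal keratinocyte genes. The PAR-bZIP factors that bind D-boxes as DBP does also fell, Tef (-1.26 ± 0.34, SE, edgeR adjusted p = 0.0153) and Hlf (-1.33 ± 0.46, adjusted p = 0.0439). Nfil3, which represses through the same element, rose (1.53 ± 0.49, adjusted p = 0.032), with 134.7, 35.7, 41.9 and 43.6 CPM in NcstnΔKC replicates 1 to 4 against 10.0 to 29.1 CPM in normal skin. Bhlhe40 (DEC1), the relative of Bhlhe41, rose (1.08 ± 0.34, adjusted p = 0.031), from 75.6 ± 37.1 to 159 ± 47.5 CPM (SD, n = 4 each), while Bhlhe41 fell. Tef lost its call with total counts (-0.98), with FPKM (-0.69) and without Xist (-1.34). Hlf lost its call under 12 alternatives, among them the one without normal replicate 1 (-0.73). Nfil3 lost it under 9, among them scaling by basal keratinocyte genes (0.91), and without NcstnΔKC replicate 1 it was at 0.87 and still called. Bhlhe40 lost it under 10, among them that scaling (0.41), the muscle share as a covariate (0.10) and the replicate block (1.16). Arntl2 (1.11 ± 0.41, adjusted p = 0.052), the paralogue of Arntl, did not pass in the main fit. Cry2 (0.41), Ciart (-0.70), Nr1d2 (-0.03), Rora (-0.58) and Rorb (-0.43) did not pass either, and Cry2 had 211 CPM in NcstnΔKC replicate 1 against 31.1 to 36.4 CPM in the other 3. Without that library Cry2 was at -0.82 and passed (edgeR adjusted p = 0.0324), as it did in the libraries with Xist alone (-0.59), without replicate 1 of both groups (-0.49) and without normal replicate 2 and NcstnΔKC replicate 1 (-0.93). Ciart was at 0.34 and Nr1d2 at 0.40 without normal replicate 1, and neither passed there. Ciart passed without normal replicate 2 and NcstnΔKC replicate 1 (-1.84), and Rora with scaling by basal keratinocyte genes (-1.16). Arntl2 passed with total counts (1.46), with the DESeq2 Wald test (1.12) and in the libraries with Xist alone (1.16). Among other alternatives, it also passed without NcstnΔKC replicate 1 (edgeR adjusted p = 0.00184). Arntl2 did not pass with scaling by basal keratinocyte genes (0.41), with the muscle share in the fit (0.26) or with limma-voom (0.97).

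Among 13 genes that control clock protein turnover, 3 rose and 3 fell (median 0.06), and the 44.1% of all tested genes that were called is near that share. With total counts and with FPKM the split was 5 higher and 1 lower, and with scaling by basal keratinocyte genes 0 higher and 6 lower. Fbxw11 (0.96 ± 0.17, edgeR adjusted p = 0.00276), a subunit of the ubiquitin ligase that targets PER proteins, and Csnk1a1 (0.68 ± 0.16, adjusted p = 0.00772), a casein kinase, rose. With scaling by basal keratinocyte genes these were 0.31 and 0.00 and did not pass. Btrc (-0.59 ± 0.14, adjusted p = 0.0094), the relative of Fbxw11, and Prkaa2 (-1.76 ± 0.50, adjusted p = 0.0193), a catalytic subunit of the energy sensor AMPK that is abundant in muscle, fell. Prkaa2 was at 0.26 with the muscle share in the fit, and Btrc at -0.26 with total counts did not pass. Of 8 clock-controlled outputs 2 rose and 0 fell by edgeR (0 lower at an unadjusted p under 0.05, by DESeq2 and by limma-voom), beside 21.4% and 22.7% over all tested genes. However, 1 was lower with scaling by basal keratinocyte genes, in the libraries with Xist alone, and without normal replicate 2 and NcstnΔKC replicate 1. The 2 that rose were Aqp3 (2.82 ± 0.29, adjusted p = 2.32e-04), a water and glycerol channel of the epidermis, and Nampt (0.89 ± 0.16, adjusted p = 0.00282), which makes the NAD precursor. Under the basal keratinocyte scaling Nampt had 0.25 and did not pass. Alas1 (-0.30) and Wee1 (0.53), a cell cycle kinase, did not pass. Of 9 genes induced by glucocorticoids, hormones that also reset the clock, 3 rose and 0 fell by edgeR (0 lower at an unadjusted p under 0.05, by DESeq2 and by limma-voom), beside the same background. In the libraries with Xist alone 4 were higher and 3 lower, and without normal replicate 2 and NcstnΔKC replicate 1 there were 3 of each. There was 1 lower with scaling by basal keratinocyte genes, without normal replicate 2, without NcstnΔKC replicate 1, and without replicate 1 of both groups. Cebpd (2.55 ± 0.37, adjusted p = 0.00104), Sgk1 (1.76 ± 0.34, adjusted p = 0.00352) and the metallothionein gene Mt2 (1.37 ± 0.27, adjusted p = 0.00381) rose, and Errfi1 had 0.76 and did not pass. Mt2 was at 0.82 with the muscle share in the fit, where it did not pass. The calls of Cebpd, Sgk1, Mt2, Aqp3, Nampt, Fbxw11, Csnk1a1, Btrc and Prkaa2 ended in the libraries without Xist, 2 per group.

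The genes most like Arntl in their deviations from the group means, among 13584 compared, were Klhdc2 (r = 0.996), Tsc22d1 (0.993), Ppm1l (0.986), Ddit4l (0.983) and Cycs (0.982), over 8 libraries. Npas2 was the 69th. Klhdc2 had 21.4, 31.9, 33.3 and 30.7 CPM in normal replicates 1 to 4 and 30.9, 21.8, 20.5 and 20.1 CPM in NcstnΔKC replicates 1 to 4, with replicate 1 apart in both groups as for Arntl. Most like Dbp were Cyb5r3 (r = 0.992), Gldc (0.979), Tbc1d2b (0.978), Vegfc (0.968) and Trank1 (0.964), and Per3 was the 38th. With 8 points, of which replicates 1 carry most of the spread, these values describe the libraries and were not tested.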

How the data were processed

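Whole-tissue RNA was sequenced from skin of 8 samples, 4 per group. The deposited table holds, per the file headers, a raw count and an FPKM value per Ensembl gene and library. Counts were used as the authors deposited them, and the authors' FPKM values were proportional to the share of its library that a gene took, as checked on 9175 genes with 50 or more counts throughout. The submitters' processing notes name TopHat2 2.0.9, TopHat and HTSeq and the builds mm10 and hg38, without roles. Annotation release, strandedness and the treatment of multiply mapping reads are not given in the sources used here.

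Genes were filtered with filterByExpr, scaled by TMM and compared with edgeR 4.0.16 (robust quasi-likelihood test, R 4.3.3) at a Benjamini-Hochberg adjusted p of 0.05, with all 8 libraries and no covariates. CPM divide counts by the TMM-scaled library size, and log2 CPM used a prior count of 1. The common biological coefficient of variation was 0.315. Alternatives used DESeq2 1.42.0 and limma 3.58.1 (voom on counts, and trend on log2 FPKM with 1 added) and Python 3.11.15. The 10 genes, the lists and the tests were chosen with earlier results of these data known. The rule for named genes took all 10, the 11 other loop genes, the 4 lowest p of each further list and the 5 genes most like Arntl or Dbp (mean of at least 1 CPM). Exon overlaps come from GENCODE M21 and promoters from RefSeq (GRCm38.p6). A result for 1 of the other loop genes is not reported here. Of 123 list entries outside the 10 genes, 123 matched.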

Additional observations from a re-analysis of the deposited data

Results flagged for a closer look

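Of 42 groups of 4 libraries checked for a library far from the other 3, of which chance flags about 1 in 20, 5 had one. Arntl had 25.5 CPM in normal replicate 1 against 61.2 to 65.8 CPM in the other normal libraries. It had 89.3 CPM in NcstnΔKC replicate 1 against 35.3 to 43.2 CPM. Per1 had 460.0 CPM in NcstnΔKC replicate 1 against 130.04 to 152 CPM, and Per3 had 159.9 CPM in normal replicate 1 against 30.4 to 50.4 CPM. Hair follicle markers took 3.23% of counts in normal replicate 2 against 0.0337% to 0.078%.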

How the results depend on the processing

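Depth differed between the groups, with fewer counts in the normal libraries, and the hour of collection is not in the labels, which limits every comparison of clock genes here. Of 26 alternatives, 2 were chosen after seeing the data (those that leave out 2 libraries together). The 5 calls among the 10 clock genes became 3 with log2 FPKM, 3 without a filter, 2 in the fit with a replicate block (Nr1d1 and Bhlhe41) and 0 among libraries without Xist (2 per group, edgeR, 5 at an unadjusted p under 0.05). The count was 7 with the DESeq2 Wald test (2 higher, 5 lower) and 7 in the libraries with Xist alone (0 higher, 7 lower). Leaving out each replicate gave 3 to 6 calls, with 3 without NcstnΔKC replicate 2. The 6915 genes called became 3903 with a log2 change of at least 1, 1938 with the skeletal muscle share as a covariate and 4 in the libraries without Xist. They ranged from 5619 to 7994 when each replicate was left out. The 15 calls among 41 pathway genes became 9, 6 and 0 under those 3 settings (for the last, 8 at an unadjusted p under 0.05) and 23 in the libraries with Xist, and ranged from 11 to 19 without each replicate. Clock reversed to -0.22 and Csnk1d to -0.12 with scaling by basal keratinocyte genes, and Prkaa2 to 0.26 with the muscle share; the cause was not tested. The direction of Per2, Per3, Cry1, Nr1d1, Dbp and Bhlhe41 held in all 26, that of Clock and Npas2 in 25, of Per1 in 22 and of Arntl in 15. Among the 26, the added log2 change threshold reuses the main fit, and the filter at 1 CPM gave the same values. Those settings therefore repeat the main directions. With scaling by total counts 5400 genes were higher and 2174 lower, with FPKM 5351 and 2115, and with scaling by basal keratinocyte genes 734 and 7570, against 3360 and 3555. At least 1 CPM in 4 libraries kept the same number of genes as the main filter, 15684. No label says that replicate numbers pair animals, and the deviations of same-numbered libraries correlated at -0.02, -0.03, -0.01 and 0.22 over genes, so the replicate block (5981 genes called, 13 pathway genes) is an alternative alone, and not every library correlated best with its own number.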

Other observations

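NcstnΔKC replicate 1 was the highest library of its group in 7 of the 9 glucocorticoid-responsive genes, a count made after the values were seen. The same library was the highest in 7 of the 10 clock genes, 9 of the 11 other loop genes and 11 of the 13 turnover genes, so this is no trait of the glucocorticoid list alone. Pdk4, which restrains glucose oxidation, had 671 CPM there against 22.9 to 34.6 CPM in NcstnΔKC replicates 2 to 4, and 50.3, 387, 258 and 129 CPM in normal replicates 1 to 4. Klf9, a factor of both the clock and the glucocorticoid response in keratinocytes, had 398 CPM there against 106 to 117 CPM, and 98.4 to 175 CPM in normal skin. Sgk1, a kinase, had 511 CPM there against 178 to 225 CPM, and 71.2 to 89.2 CPM in normal skin, so all NcstnΔKC libraries lay above it. In normal skin replicate 2 was the lowest library in 6 of these 9 genes. It was likewise the lowest in 5 of the 10 clock genes, 7 of the 11 other loop genes and 5 of the 8 outputs. Among the 13 turnover genes, however, it was the lowest in 1 and the highest in 5. That library had 71.0 CPM of Tsc22d3, a glucocorticoid-induced repressor, against 252 to 416 CPM in the other normal libraries. The like shares over all tested genes were not computed for either library. Neither the hour of collection nor handling is in the labels, and these values were not tested.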
